A study of Mus musculus with 10 samples.

Results

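Fat tissue holds adipocytes and the stromal cells that can become adipocytes, and 10 genes that mark those progenitors and their subtypes are described here: Dpp4, Pi16, Anxa3, Cd24a, Pdgfra, Ly6a, Cd34, Icam1, F3 and Clec11a. They were chosen by gene symbol, and all 10 were found among the 40503 genes of the deposited table. RNA came from gonadal white adipose tissue, the depot beside the ovaries and uterus, of female C57BL/6 mice aged 12 weeks. The KO group (5 animals, numbered 1, 4, 7, 8 and 17) carried Med19-iAKO, an adipose-specific inducible deletion of Med19, a subunit of Mediator, the coactivator complex of RNA polymerase II. These mice were given tamoxifen (100 mg/kg, 5 days), and tissue was taken 14 days later, per the labels. The control group (5 animals, numbered 2, 9, 19, 86 and 89) is labelled WT. The sources used here do not say whether it received tamoxifen, or which promoter drives the recombinase. The label places the deletion in adipose tissue, and whether the progenitors described here carried it was not measured.

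In single-cell studies of mouse fat, the stromal fraction splits into a few progenitor types. Interstitial progenitors carry Dpp4 and Pi16 and lie upstream of committed preadipocytes, which carry the adhesion molecule Icam1. A further type carries F3 (tissue factor, CD142) with Clec11a, and in some depots such cells were described as restraining the differentiation of their neighbours. Pdgfra, Ly6a (Sca-1) and Cd34 are surface markers that most of these cells share, and Cd24a marks an early, less committed fraction. None of these genes is restricted to progenitors. Endothelial cells also express Cd34, Ly6a and Icam1, neutrophils express Anxa3 and Cd24a, B cells and epithelia express Cd24a, T cells express Dpp4, and perivascular cells express F3. In bulk tissue, fewer cells of a type and less RNA per cell cannot be told apart.

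Promoters of the genes that name the types contrasted here are shown first, so that markers of one type can be compared with each other by sequence. RefSeq promoters on GRCm38.p6 were found for 7 of the 10 genes, as the 250 bases before the gene start, and capitals mark motif matches on either strand. The AP-1 motif searched was TGANTCA. The GC box was searched as GGGCGG, in the form bound by Sp1 family factors. The TATA box was searched as TATAAA, an element of core promoters. The CCAAT box was searched by the letters of its name.
Dpp4 promoter: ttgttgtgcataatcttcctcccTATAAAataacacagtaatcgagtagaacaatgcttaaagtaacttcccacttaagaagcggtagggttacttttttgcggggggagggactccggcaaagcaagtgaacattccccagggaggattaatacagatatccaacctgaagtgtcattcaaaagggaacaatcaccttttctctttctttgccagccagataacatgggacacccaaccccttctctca
Pi16 promoter: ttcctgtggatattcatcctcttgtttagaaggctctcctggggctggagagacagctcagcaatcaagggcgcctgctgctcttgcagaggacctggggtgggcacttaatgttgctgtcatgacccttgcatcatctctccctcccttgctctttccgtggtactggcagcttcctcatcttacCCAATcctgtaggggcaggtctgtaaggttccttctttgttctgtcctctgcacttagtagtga
Icam1 promoter: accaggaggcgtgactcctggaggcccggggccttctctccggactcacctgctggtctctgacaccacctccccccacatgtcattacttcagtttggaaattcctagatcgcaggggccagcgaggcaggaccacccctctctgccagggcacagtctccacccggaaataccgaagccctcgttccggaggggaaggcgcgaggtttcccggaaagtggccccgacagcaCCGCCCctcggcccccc
F3 promoter: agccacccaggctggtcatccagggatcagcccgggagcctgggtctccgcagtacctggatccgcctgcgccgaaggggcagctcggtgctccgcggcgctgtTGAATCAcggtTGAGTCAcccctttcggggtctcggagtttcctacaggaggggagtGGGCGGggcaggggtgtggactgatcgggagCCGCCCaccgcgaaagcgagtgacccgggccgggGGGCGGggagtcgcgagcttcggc
Clec11a promoter: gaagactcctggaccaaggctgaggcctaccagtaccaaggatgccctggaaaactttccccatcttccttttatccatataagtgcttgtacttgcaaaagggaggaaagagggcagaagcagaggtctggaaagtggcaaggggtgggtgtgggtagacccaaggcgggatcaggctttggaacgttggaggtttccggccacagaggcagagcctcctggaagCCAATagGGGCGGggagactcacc
The F3 promoter (chr3:121723287-121723536, plus strand) holds 2 AP-1 matches and 3 GC boxes, and its GC content is 70.0%. AP-1 matches occur in 6.75% and GC boxes in 32.7% of the 32851 RefSeq promoters of this length, and the median GC content is 52.4%. The Clec11a promoter (chr7:44306960-44307209, minus strand) holds 1 GC box and 1 CCAAT box, at 55.6% GC. CCAAT boxes occur in 33.8% of all promoters. The Icam1 promoter (chr9:21015690-21015939, plus strand) holds 1 GC box, the Pi16 promoter (chr17:29318632-29318881, plus strand) 1 CCAAT box, and the Dpp4 promoter (chr2:62412232-62412481, minus strand) 1 TATAAA match. That match is at position -227 relative to the gene start, and 12.4% of promoters hold the motif. The Pdgfra and Cd34 windows held none of the 4 motifs. An NF-kB consensus was also searched and matched none of the 7 windows, against 7.25% of all promoters. NF-kB sites of other letters were not searched, so windows without a match may still hold such sites. No match overlaps another, and each is a description of letters only.

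Expression was measured by RNA-seq and deposited as RPKM, reads scaled to gene length and library size, so levels can be compared between genes. Whole reads recovered from these values gave 14444258 to 20183633 reads per library. The 5 highest factors of a median-ratio scaling were those of KO libraries (0.9981 to 1.0658, against 0.9231 to 0.9945 in WT), and the deposited values hold no such scaling. Med19 RNA averaged 6.79 ± 0.85 RPKM in KO and 6.70 ± 0.89 RPKM in WT (SD, n = 5 each, exact permutation p = 0.881), so its level does not check the labels. KO libraries are therefore called KO-labelled below, and every direction rests on the labels. Adipocyte markers were lower in the KO-labelled libraries, with 9 of 10 called by limma, against 1.95% of all 17038 tested genes called lower. Their summed level was 5482 to 5748 RPKM against 13610 to 19710 RPKM in WT. Cfd and Fabp4 were the most abundant of them. The labels name separate animals and no batch.

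All 10 progenitor markers were detected in every library, and the pan-progenitor markers were the most abundant together with Anxa3. In the WT libraries the order by mean RPKM was Cd34, Pdgfra, Anxa3, Ly6a, Icam1, Cd24a, F3, Dpp4, Clec11a and Pi16, from 84.7 ± 8.0 down to 5.48 ± 1.04 (SD, n = 5). The ranges of neighbours in this order did not overlap between Anxa3 and Ly6a, Ly6a and Icam1, Cd24a and F3, and F3 and Dpp4. The other neighbours overlapped. In the KO-labelled libraries the order was the same except that Clec11a stood above Dpp4, and those 2 genes overlapped in both groups.

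Of the 10 markers, 2 passed the test in the KO-labelled libraries, Cd24a and Clec11a, both higher, against a background of 4.00% of all 17038 tested genes called higher and 1.95% lower. Both rises were small, 1.42-fold and 1.37-fold. None of the 10 was called lower by limma at an adjusted p under 0.05, nor at an unadjusted p under 0.05, nor by voom. All 10 fitted differences were above 0, with a median log2 difference of 0.22, and 68.7% of all tested genes were above 0, with a median of 0.09. With median-ratio scaling, which moved the median of all genes to 0.01, limma called none of the 10, and at an unadjusted p under 0.05 it picked the same 2 genes. The background was then 0.599% called higher and 2.43% lower. Quantile normalization also left none called.

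**Figure D1:**
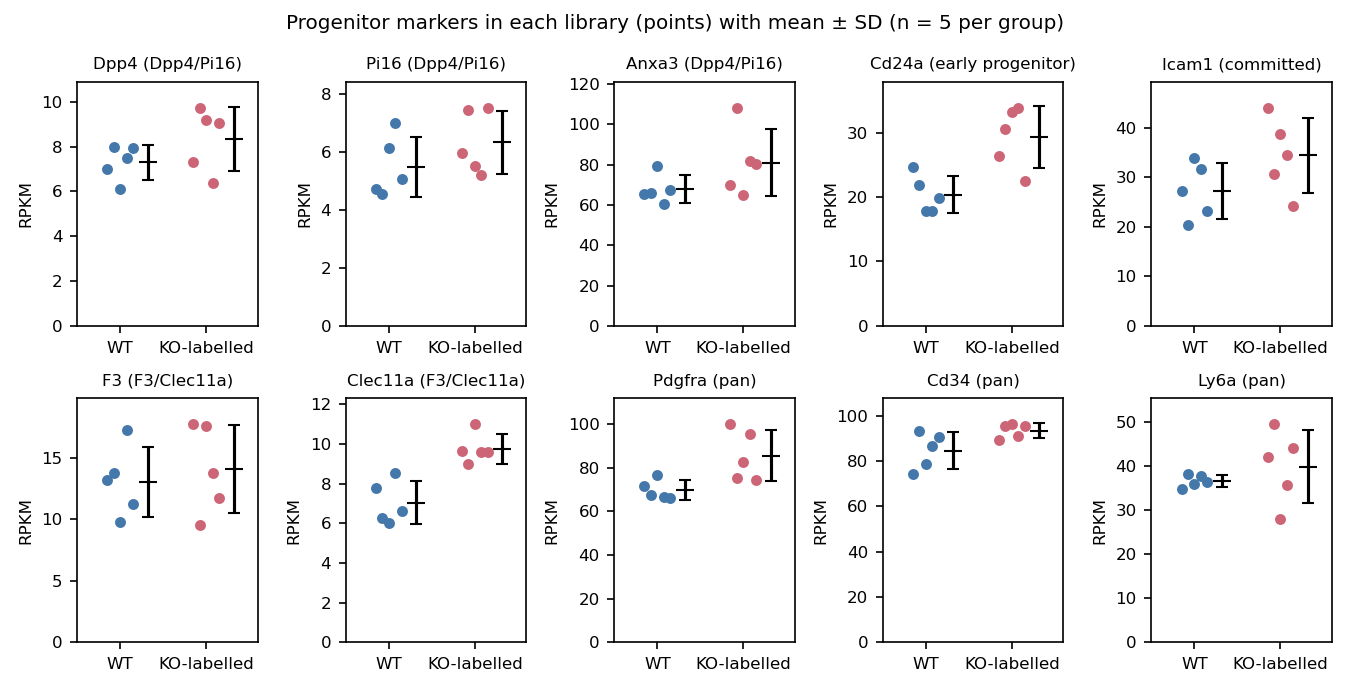
RPKM (vertical axis) of each progenitor marker in the 5 WT and 5 KO-labelled libraries, as points, with mean ± SD beside them. Clec11a is the marker whose groups do not overlap, with KO-labelled libraries from 8.98 to 11.0 RPKM and WT libraries from 6.01 to 8.54 RPKM.

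Clec11a, which encodes a secreted C-type lectin growth factor known as stem cell growth factor or osteolectin, was at 9.64, 8.98, 11.0, 9.59 and 9.58 RPKM in KO-labelled animals 1, 4, 7, 8 and 17. In WT animals 2, 9, 19, 86 and 89 it was at 7.77, 6.28, 6.01, 8.54 and 6.62 RPKM. Every KO-labelled library lay above every WT library, an arrangement seen in this direction in 6.96% of tested genes. The log2 value rose by 0.45 (SE 0.10, 95% interval 0.24 to 0.67, limma adjusted p = 0.0267). The gene had 180 to 385 reads per library, so counting alone gives a spread of about 6.11%, against 7.67% within the KO-labelled group and 15.2% within WT. The call ended with median-ratio scaling (adjusted p = 0.107, log2 0.36), with quantile normalization (0.0963) and without KO 1, KO 7, KO 8, KO 17, WT 9, WT 19 or WT 89, where adjusted p was 0.0531 to 0.0653 and log2 differences 0.40 to 0.46.

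F3 encodes tissue factor, the cell-surface initiator of coagulation, and is the other marker of the Clec11a type. Its KO-labelled libraries were at 17.8, 9.55, 17.6, 13.8 and 11.8 RPKM (animals 1, 4, 7, 8 and 17) and its WT libraries at 13.2, 13.8, 9.80, 17.3 and 11.3 RPKM (animals 2, 9, 19, 86 and 89). The groups overlapped over nearly their whole ranges. F3 differed by 0.09 on the log2 scale (SE 0.19, limma adjusted p = 0.817), and the 95% interval of the ratio ran from 0.795 to 1.43. The spread within groups, 25.5% in KO-labelled and 21.7% in WT libraries, was far above the 4.94% that counting gives at this depth. KO 4 had the lowest F3 value of all 10 libraries and a Clec11a value above every WT library.

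Cd24a encodes a small, heavily glycosylated surface protein anchored by GPI. It was at 26.3, 30.6, 33.2, 33.9 and 22.4 RPKM in KO-labelled animals 1, 4, 7, 8 and 17, and at 24.7, 21.8, 17.8, 17.8 and 19.8 RPKM in WT animals 2, 9, 19, 86 and 89. KO 17 lay below WT 2, and the other 4 KO-labelled libraries lay above all of WT. The log2 value rose by 0.51 (SE 0.13, 95% interval 0.22 to 0.79, limma adjusted p = 0.0469). The call ended with median-ratio scaling (adjusted p = 0.147, log2 0.41), quantile normalization (0.138), array weights (0.0618), no filter on low values (0.0821), the plain eBayes fit (0.0601) and animals numbered under 20 (0.230), and without KO 1, KO 4, KO 7, KO 8, WT 9, WT 19, WT 86 or WT 89 (adjusted p 0.0676 to 0.106, log2 0.45 to 0.54). Of 10 neutrophil and monocyte markers 5 were called higher, S100a9, Ccr2, Retnlg, Cxcr2 and Mmp8, against 4.00% of all tested genes. The list summed to 467 to 860 RPKM in the KO-labelled libraries against 200 to 404 RPKM in WT. S100a8, the most abundant of the list with S100a9, was not called (limma adjusted p = 0.0529). The calls of S100a9 and Ccr2 were kept with median-ratio scaling and in all 10 runs that left out 1 library. The other 3 ended with that scaling, and in 7 (Retnlg), 9 (Cxcr2) and 7 (Mmp8) of the 10 runs. Of 7 B cell markers none was called (summed level 21.59 to 32.38 against 19.97 to 38.6 RPKM, led by Cd79b and Cd79a). Of 7 epithelial markers 3 could be tested and none was called (7.15 to 9.67 against 5.29 to 8.47 RPKM). Krt5 and Cldn4 were listed at 0 in some libraries and Krt7 and Cdh1 were the most abundant. The part of these cells in the Cd24a difference was not tested.

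**Figure D2:**
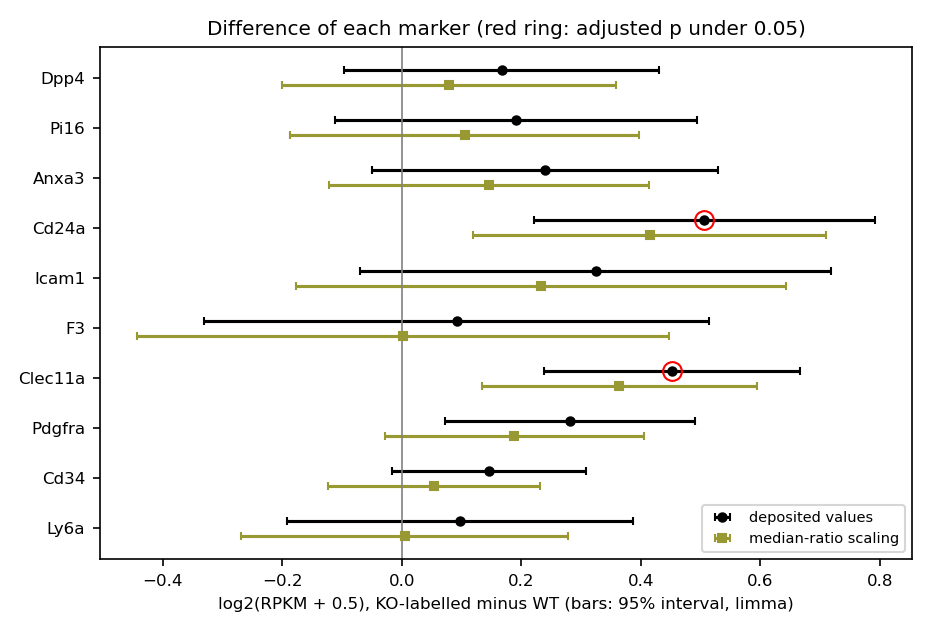
Log2 difference of each marker between KO-labelled and WT libraries (horizontal axis, bars are 95% intervals from limma) for the deposited values and after median-ratio scaling. Cd24a and Clec11a carry the red ring of an adjusted p under 0.05 with the deposited values, and no marker carries it after scaling.

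Dpp4, Pi16 and Anxa3 mark the interstitial type. Dpp4, a dipeptidyl peptidase of the cell surface, was at 7.30, 9.74, 9.20, 6.36 and 9.03 RPKM in KO-labelled animals 1, 4, 7, 8 and 17 and at 6.99, 8.00, 6.11, 7.48 and 7.94 RPKM in WT animals 2, 9, 19, 86 and 89. KO 4, KO 7 and KO 17 stood above all WT libraries, and KO 1 and KO 8 lay within the WT range. Its log2 difference of 0.17 (SE 0.12) did not pass (limma adjusted p = 0.424), and the 95% interval of the ratio ran from 0.936 to 1.35.

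Pi16, a secreted or membrane-anchored peptidase inhibitor, was at 5.94, 7.42, 5.51, 5.20 and 7.52 RPKM in the same KO-labelled animals and at 4.71, 4.53, 6.11, 6.99 and 5.07 RPKM in the WT animals. KO 4 and KO 17 were the highest libraries, as they were among the 3 highest for Dpp4, and WT 86 came next for Pi16. The log2 difference was 0.19 (SE 0.14, limma adjusted p = 0.427, ratio 0.926 to 1.41). Anxa3, a calcium-dependent phospholipid-binding annexin, was at 69.99, 108.2, 64.8, 81.9 and 80.1 RPKM in the KO-labelled animals and at 65.5, 66.1, 79.4, 60.4 and 67.2 RPKM in WT. KO 4 was the highest library, and KO 7 lay below WT 2, WT 9, WT 19 and WT 89. Anxa3 differed by 0.24 on the log2 scale (SE 0.13, limma adjusted p = 0.290), and by 0.13 without KO 4 (adjusted p = 0.451). No difference in any of the 3 interstitial markers was therefore detectable beyond the spread between animals, and rises of up to about 1.35-fold to 1.44-fold lie inside the 95% intervals.

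Icam1, the adhesion molecule that marks committed preadipocytes, was at 44.1, 30.8, 38.7, 34.5 and 24.1 RPKM in KO-labelled animals 1, 4, 7, 8 and 17 and at 27.3, 20.4, 34.0, 31.7 and 23.2 RPKM in WT animals 2, 9, 19, 86 and 89. KO 1, KO 7 and KO 8 stood above all WT libraries and KO 17 lay in the lower part of the WT range. The log2 difference was 0.32 (SE 0.18, limma adjusted p = 0.291) with a ratio interval of 0.953 to 1.65. Endothelial markers, whose cells also carry Icam1, had 1 of 11 called, against 1.95% of all tested genes called lower. It was Kdr, which was lower (limma adjusted p = 0.0375). That call ended in 9 of the 10 runs that left out 1 library. It was kept with median-ratio scaling (limma adjusted p = 0.0144) and with quantile normalization (0.0195). Of the 11 endothelial markers 1 had a difference above 0, against 68.7% of all tested genes, and the list median was -0.17. The endothelial list summed to 139 to 201 RPKM in the KO-labelled libraries against 167 to 204 RPKM in WT, led by Cdh5 and Pecam1. Macrophage markers had 0 of 10 called by limma, all 10 with differences above 0, and summed to 2046 to 2333 RPKM against 1514 to 2140 RPKM, led by C1qb and C1qa. Their part in the Icam1 values was not tested.

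Among the markers that most progenitors share, Pdgfra came closest to the threshold. Pdgfra, the receptor for platelet-derived growth factors that defines the fibroblast lineage of fat, was at 99.8, 75.3, 82.5, 95.2 and 74.2 RPKM in KO-labelled animals 1, 4, 7, 8 and 17 and at 71.7, 67.6, 76.8, 66.5 and 66.3 RPKM in WT animals 2, 9, 19, 86 and 89. KO 4 and KO 17 lay below WT 19, and the other 3 above all of WT. The log2 difference was 0.28 (SE 0.09, 95% interval 0.07 to 0.49, limma adjusted p = 0.0996). With 6480 to 10245 reads per library, Pdgfra was the most deeply counted of the 10 markers.

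Cd34, a sialomucin of progenitors and endothelium, was at 89.1, 95.5, 96.3, 91.1 and 95.5 RPKM in the KO-labelled animals and at 74.3, 93.4, 78.6, 86.5 and 90.5 RPKM in WT. The KO-labelled libraries were tight (spread 3.43%) beside the wider WT group (9.48%). KO 4, KO 7 and KO 17 lay above all of WT, and KO 1 and KO 8 in the upper part of the WT range. Its log2 difference was 0.15 (SE 0.07, limma adjusted p = 0.246, ratio 0.989 to 1.24). Ly6a, the GPI-anchored antigen Sca-1, was at 42.1, 49.5, 28.0, 35.6 and 44.1 RPKM in the KO-labelled animals and at 34.8, 38.2, 35.9, 37.7 and 36.3 RPKM in WT. Here WT was the tight group (spread 3.73%) and the KO-labelled libraries lay on both sides of it (20.7%), with KO 7 the lowest and KO 4 the highest of all 10. The log2 difference was 0.10 (SE 0.13, limma adjusted p = 0.700). Reads of Ly6a may be shared with near-identical Ly6 family genes, so its level carries that uncertainty.

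The subtypes could be set against each other inside each library, where scaling between libraries cancels apart from the pseudocount. The mean log2(RPKM + 0.5) of Dpp4, Pi16 and Anxa3 minus that of F3 and Clec11a was 0.16, 1.08, 0.12, 0.30 and 0.72 in KO-labelled animals 1, 4, 7, 8 and 17. It was 0.36, 0.53, 0.89, 0.28 and 0.69 in WT animals 2, 9, 19, 86 and 89. The group means were 0.48 ± 0.42 and 0.55 ± 0.25 (SD, n = 5), so the difference of -0.07 was smaller than the spread in either group. The interstitial markers minus Icam1 averaged -1.03 ± 0.49 in the KO-labelled and -0.90 ± 0.27 in the WT libraries. F3 and Clec11a minus Icam1 averaged -1.51 ± 0.23 and -1.45 ± 0.37. In all 3 balances the groups overlapped. KO 4 and KO 17 had the highest KO-labelled values of the first 2 balances, and KO 1 and KO 7 the lowest. These balances are scores over the markers and carry no test. Other cells also express these markers, such as neutrophils Anxa3 and endothelial cells Icam1, and their part in the balances was not tested.

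**Figure D3:**
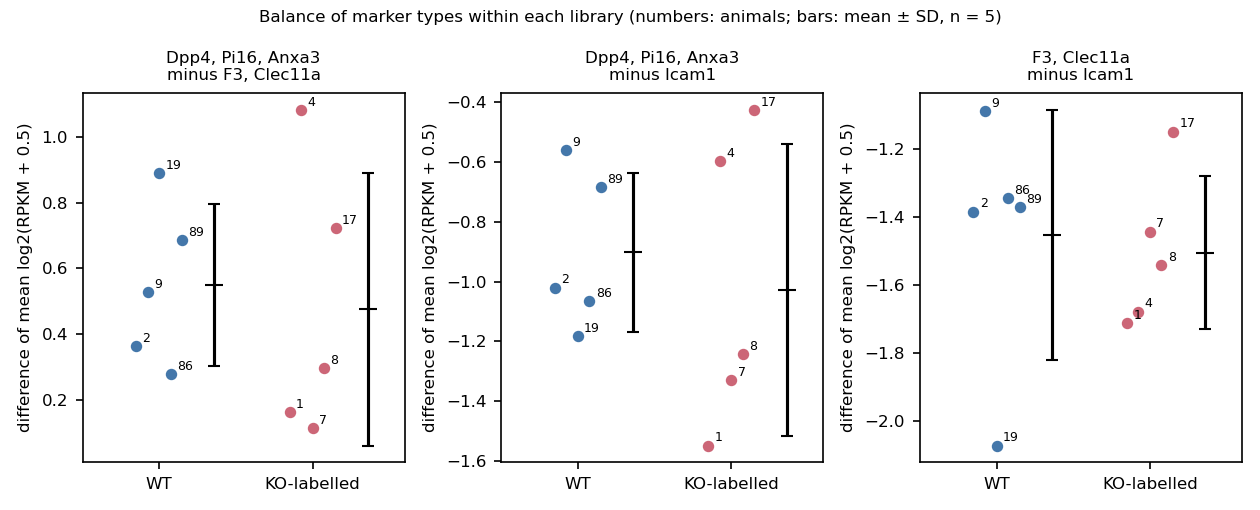
Balance of subtype markers within each library as differences of mean log2(RPKM + 0.5) (vertical axis), with animal numbers beside the points and mean ± SD bars. KO-labelled animals 4 and 17 lie apart from animals 1, 7 and 8 in the first 2 panels, and the WT libraries lie across the gap between them.

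In single pairs of markers the groups also overlapped. Clec11a minus F3 was -0.85, -0.09, -0.65, -0.50 and -0.28 in the KO-labelled animals and -0.73, -1.07, -0.66, -0.98 and -0.73 in WT, so KO 4, KO 7, KO 8 and KO 17 exceeded each WT value and KO 1 did not. Clec11a minus Pdgfra, which sets the marker against the shared progenitor receptor, was -3.06 ± 0.21 in KO-labelled and -3.23 ± 0.25 in WT libraries, and the groups overlapped. Cd24a minus Pdgfra was -1.53 ± 0.27 and -1.76 ± 0.22, again with overlap. Pi16 minus Dpp4, the 2 partners of the interstitial type, was -0.37 ± 0.19 and -0.39 ± 0.33. In the deposited values, unlike in these pairs, scaling between libraries does not cancel. There the KO-labelled libraries held the highest value of every one of the 10 markers. KO 1 and KO 4 did so for 3 markers each, KO 7 for 2, and KO 8 and KO 17 for 1 each. The lowest value was in a WT library for 8 markers and in KO 4 and KO 7 for 1 each, F3 and Ly6a. KO libraries also had the highest median-ratio factors, and 68.7% of all tested genes had a difference above 0. With median-ratio scaling all 10 marker differences stayed above 0 (log2 0.0022 to 0.41), against 51.9% of all tested genes. With quantile normalization all 10 did so too (0.0072 to 0.42), against 55.7%. The share of all genes with their highest or lowest value in a KO-labelled library was not counted.

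The deposited transcript table lists 25 transcripts of the 10 genes, and 24 could be tested. Limma called none of them at an adjusted p under 0.05, where 0.0922% of the 44475 tested transcripts were called higher and 0.452% lower. None of the 25 separated the groups without overlap, against 1.57% of tested transcripts with all KO-labelled libraries above WT and 1.30% below. At an unadjusted p under 0.05 there were 3, all higher, the single transcripts of Cd24a (ENSMUST00000058714) and Clec11a (ENSMUST00000004587) and 1 of Cd34. The Clec11a transcript was at 7.70 ± 0.81 RPKM in the KO-labelled and 5.53 ± 0.88 RPKM in the WT libraries (log2 0.45, limma adjusted p = 0.208, n = 5 each), close to its gene-level difference. The Cd24a transcript was at 38.7 ± 5.2 and 30.3 ± 3.7 RPKM (log2 0.35, limma adjusted p = 0.368, n = 5 each). It differed from the gene values in level (29.3 ± 4.9 and 20.4 ± 2.9 RPKM) and in the log2 difference (0.51 for the gene). The reason for this gap was not tested.

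Cd34 was divided nearly evenly between 2 protein-coding transcripts. ENSMUST00000110815 was at 42.5 ± 4.9 RPKM in the KO-labelled and 36.2 ± 3.4 RPKM in the WT libraries, and ENSMUST00000016638 at 41.1 ± 3.7 and 42.7 ± 4.8 RPKM. The share of ENSMUST00000110815 was 47.8%, 49.9%, 58.2%, 51.7% and 46.3% in KO-labelled animals 1, 4, 7, 8 and 17 and 49.5%, 46.9%, 41.3%, 45.7% and 46.2% in WT animals 2, 9, 19, 86 and 89. KO 4, KO 7 and KO 8 lay above all of WT and KO 17 within it. The depth behind transcript values is unknown, and these shares carry no test. Dpp4 was divided among 6 listed transcripts, of which the protein-coding ENSMUST00000047812 was at 5.57 ± 0.77 RPKM in KO-labelled and 5.15 ± 0.43 RPKM in WT libraries. Retained-intron and processed transcripts made up the rest. Ly6a was mostly ENSMUST00000023248, with 86.9% of its summed transcript RPKM in KO-labelled and 85.2% in WT libraries.

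Wider lists of markers were used to place the 10 genes among others of the same cells. Of 16 Dpp4/Pi16-type markers 2 rose and none fell by limma, against 4.00% of all tested genes called higher and 1.95% lower. The list median was 0.08 on the log2 scale, against 0.09 for all tested genes. The 2 were Cd55, a complement decay-accelerating factor, from 11.7 ± 0.3 to 15.9 ± 2.2 RPKM (log2 0.42, SE 0.09, limma adjusted p = 0.0221), and Il13ra1, an interleukin-13 receptor chain, from 11.7 ± 1.6 to 16.5 ± 2.3 RPKM (log2 0.48, SE 0.11, limma adjusted p = 0.0323). In both, every KO-labelled library lay above every WT library, an arrangement seen in 6.96% of all tested genes. The call of Cd55 ended without KO 1 or WT 86 (adjusted p 0.0538 to 0.0632) and that of Il13ra1 without KO 1, KO 8, KO 17, WT 9, WT 19, WT 86 or WT 89 (0.0536 to 0.073). Median-ratio scaling and quantile normalization ended both.

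Of 11 measured committed-preadipocyte-type markers 1 rose and 1 fell, against 4.00% and 1.95% of all tested genes, with a list median of 0.07. Ggt5, a gamma-glutamyltransferase family enzyme, rose from 16.9 ± 2.8 to 22.1 ± 0.6 RPKM (log2 0.40, SE 0.10, limma adjusted p = 0.0421), a call that ended in 9 of the 10 runs that left out 1 library, all except that without WT 9, and with either scaling. Aoc3, a vascular adhesion amine oxidase that adipocytes also express in abundance, fell by 0.71 on the log2 scale (SE 0.10, limma adjusted p = 0.00301), from 86.3 ± 10.6 to 52.4 ± 5.3 RPKM. Its call was kept in all 10 runs that left out 1 library and with either scaling. Adipocyte markers fell beside it, as given above, and their part in the Aoc3 difference was not tested.

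Of 10 F3/Clec11a-type markers Clec11a was the 1 that rose, against 4.00% of all tested genes, and none fell. The list median was 0.14. Mgp, the matrix Gla protein gene and the most abundant of the list, was at 570 ± 105 RPKM in the KO-labelled and 426 ± 85 RPKM in the WT libraries (log2 0.42, limma adjusted p = 0.177, n = 5 each). Abcg1, a cholesterol efflux transporter, was at 41.0 ± 6.8 and 34.7 ± 6.6 RPKM (log2 0.25, limma adjusted p = 0.346, n = 5 each). Mgp and Abcg1 are also expressed outside progenitors.

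Of 16 pan-progenitor and stromal markers 3 rose and 1 fell, against 4.00% and 1.95% of all tested genes, with a list median of 0.23. Dpt, which encodes the matrix protein dermatopontin of fibroblasts, rose most, from 88.4 ± 10.7 to 176 ± 28 RPKM (log2 0.98, SE 0.12, limma adjusted p = 0.00164), and its call was kept in all 10 runs that left out 1 library and with either scaling. Lum, the small proteoglycan lumican, rose from 111 ± 18 to 153 ± 13 RPKM (log2 0.47, limma adjusted p = 0.0395), and Cd24a was the third. Gsn, the actin-severing protein gelsolin, fell by 0.63 (limma adjusted p = 0.0444) from 1006 ± 127 to 660 ± 149 RPKM. Adipocyte markers were lower as well, as given above, and their part in the Gsn difference was not tested. The Lum call ended without KO 1, KO 4, KO 7, KO 8, KO 17, WT 2, WT 19 or WT 86 (adjusted p 0.0538 to 0.0947), with median-ratio scaling and with quantile normalization. The Gsn call ended without KO 1, KO 7, KO 8, WT 2, WT 9, WT 19, WT 86 or WT 89 (0.0628 to 0.104) and with quantile normalization.

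**Figure D4:**
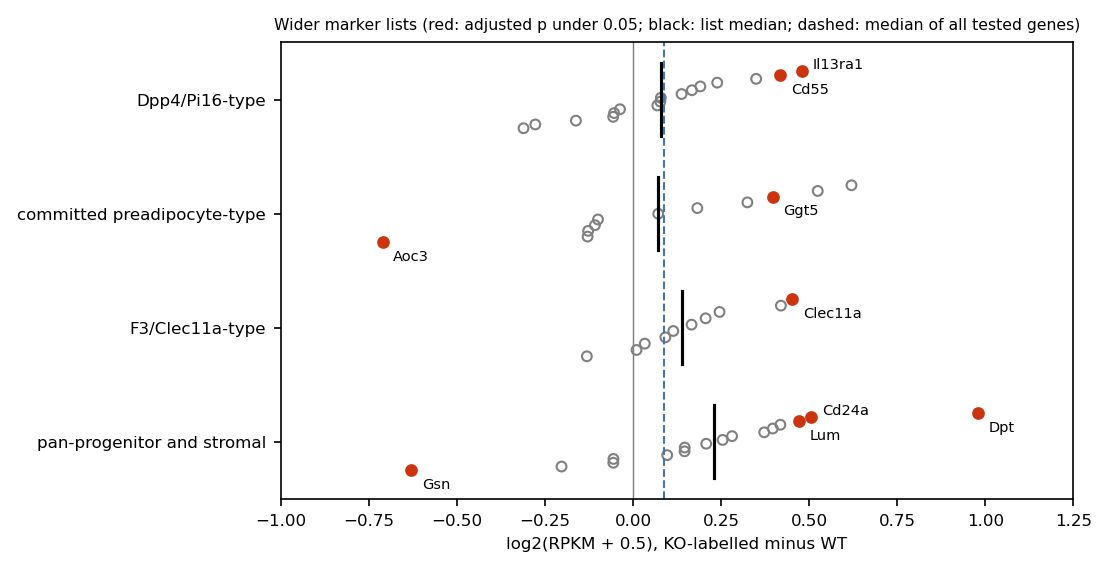
Log2 difference (horizontal axis) of every tested gene in the 4 wider marker lists, with called genes in red and named, the list median as a black bar and the median of all tested genes as a dashed line. The Dpp4/Pi16-type median (0.08) and the committed-type median (0.07) lie close to the dashed line at 0.09, and Dpt and Aoc3 are the called genes farthest from 0 on each side.

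Markers of other cells that carry these genes were set beside them. Mesothelial markers had 0 of 9 called by limma (summed level 310 to 376 RPKM in KO-labelled and 275 to 329 RPKM in WT libraries), led by Upk3b and Krt19. T cell markers, whose cells also carry Dpp4, had 0 of 7 called (8.18 to 12.3 against 8.25 to 17.98 RPKM), led by Cd2 and Trac. Pericyte and smooth muscle markers (221 to 272 against 233 to 323 RPKM, led by Acta2 and Tagln) had 2 of 9 called, Mcam and Cspg4. Both were lower, against 1.95% of all tested genes. The part of these cells in the Dpp4 and F3 values was not tested.

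The genes whose pattern over the 10 libraries was most like each marker were found among 11181 genes with a mean of at least 2 RPKM, without predicted genes and immunoglobulin segments, with Pearson's r of log2 values as a measure of likeness and no test. Clec11a was most like Hmgn3 (0.966) and Kidins220 (0.957), and Cd24a most like Zfp146 (0.976) and Ctsh (0.946). Pdgfra was most like Nxpe5 (0.988) and Tmem39a (0.973), Icam1 like Mefv (0.957) and Tnfaip3 (0.957), and F3 like Nav3 (0.949) and Cpsf7 (0.924). For Dpp4 the nearest genes were Oxnad1 (0.933) and Cdc27 (0.908), for Pi16 Acot8 (0.923) and Arf3 (0.914), and for Anxa3 Xpnpep1 (0.979) and Crip1 (0.977). Ly6a was nearest to Wrb (0.939) and Actl6a (0.928), and Cd34 to Cldn12 (0.939) and Slc16a4 (0.919). No marker was among the nearest of another by construction, since the 10 were left out of the search. With 10 libraries and so many genes searched, these values are a description only.

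**Figure D5:**
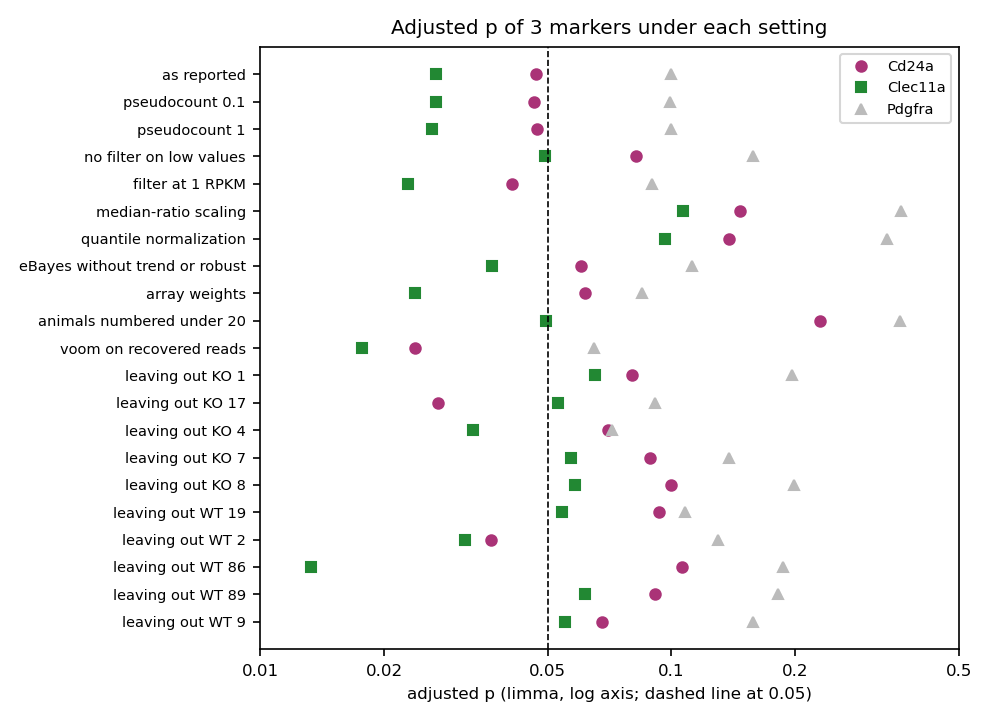
Adjusted p from limma (horizontal axis, log scale) of Cd24a, Clec11a and Pdgfra under each setting, with a dashed line at the threshold of 0.05. Clec11a moves between 0.0133 and 0.107 and Cd24a between 0.0238 and 0.230, on both sides of the line, and Pdgfra stays between 0.0648 and 0.361.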

How the data were processed

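RNA-seq of polyA RNA from 5 KO and 5 WT animals was analysed from 2 tables of RPKM values that the authors deposited, 1 of genes and 1 of transcripts. The submitters' processing notes name bcl2fastq, STAR 2.0.4b1, Subread and featureCounts 1.4.52. Build, annotation and strand setting: not given in the sources used here. Rows repeating an identifier had equal values, and 1 was kept. Whole reads, to within 0.001 reads, were recovered for all 25122 genes above 0 in at least 3 libraries and served for depth and a voom fit.

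Genes with at least 0.5 RPKM in at least 5 libraries (17038) were fitted as log2(RPKM + 0.5) with limma 3.58.1 in R 4.3.3 (eBayes with trend and robust, 2-sided, Benjamini-Hochberg over all tested genes, threshold 0.05). A fold change on this scale understates changes of low genes. Transcripts (44475) were fitted likewise. For Med19, all 252 assignments of animals gave an exact permutation test, 2-sided (smallest p 0.00794). The fit was tested on simulated data.

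The members and lists were chosen with earlier results of these data known. Dlk1 and Muc16 were not analysed here. Genes named were the 10 markers, Med19, called genes of the progenitor lists (or the 2 most abundant), the 2 most abundant of each other list and the 2 genes most like each marker. Kdr, Mcam, Cspg4, Ccr2, Retnlg, Cxcr2, Mmp8, Krt5 and Cldn4 were named after their values were seen. Alternatives were other pseudocounts, filters, scalings, fits and subsets of libraries.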

Additional observations from a re-analysis of the deposited data

Results flagged for a closer look

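Of 36 groups of 5 libraries checked, 2 held a library that stood apart by Dixon's test, where chance flags about 1 in 20. Cd55 in WT 2 was at 12.28 RPKM, with the other WT libraries between 11.5 and 11.7 RPKM. Il13ra1 in KO 1 was at 20.58 RPKM, with the other KO-labelled libraries between 14.9 and 16.0 RPKM. None of the 10 markers had such a library in either group.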

How the results depend on the processing

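No paired analysis was made because the labels give no pairing of animals. The 2 markers called higher became 0 with median-ratio scaling or quantile normalization and 1 with no filter, with the plain eBayes fit, with array weights or in animals numbered under 20, and 0 to 2 when 1 library was left out. No marker was called lower in any alternative run. Of the marker transcripts 0 were called in either direction with the other pseudocounts, filters and scalings and with 1 library left out, the alternatives run on them. Cd24a was at log2 0.51 with no filter and with the plain eBayes fit, 0.41 with median-ratio scaling, 0.42 with quantile normalization, 0.47 with array weights and 0.44 in animals numbered under 20, none of them called, and 0.45 to 0.60 with 1 library left out. Clec11a was at 0.36 with median-ratio scaling and 0.38 with quantile normalization, neither called, and 0.40 to 0.52 with 1 library left out. F3 ranged from -0.0013 to 0.22 and Med19 from -0.0373 to 0.0833 with 1 library left out, and Med19 was at -0.0671 with median-ratio scaling, -0.046 with quantile normalization and -0.0629 in animals numbered under 20.

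For the wider lists, the calls higher of the Dpp4/Pi16 type (2) became 1 with no filter, 0 with either scaling and in animals numbered under 20, and 0 to 2 with 1 library left out. Those of the committed type (1) became 0 with no filter, either scaling, the plain eBayes fit and animals numbered under 20, 2 with voom, and 0 to 1 with 1 library left out. That of the F3/Clec11a type (1) became 0 with either scaling and 0 to 1 with 1 library left out. Those of the pan-progenitor list (3) became 1 with no filter, median-ratio scaling and animals numbered under 20, 5 with voom, and 1 to 2 with 1 library left out. Its 1 call lower became 0 with no filter, quantile normalization and animals numbered under 20, and 0 to 1 with 1 library left out.

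Over all genes, the 681 called higher became 292 with no filter, 102 with median-ratio scaling, 149 with quantile normalization, 71 in animals numbered under 20 and 192 to 693 with 1 library left out. The 332 called lower became 137 in animals numbered under 20 and 205 to 313 with 1 library left out. Median-ratio scaling called 414 lower, so the share called higher went from the larger to the smaller part. The cause of these moves was not tested. The runs with 1 library left out and that of animals numbered under 20 also held fewer libraries.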
